A study of Capra hircus with 11 samples.

Results

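The miR-532/660 cluster is a set of microRNA (miRNA) hairpins that lie close together inside CLCN5, the X-linked gene of an endosomal chloride-proton exchanger. Its members were taken by name from the deposited lists, as every bovine name with the number of miR-188, miR-362, miR-500, miR-501, miR-502, miR-532 or miR-660, whatever its letter or arm. This gave 8 of the 637 miRNAs listed, which from most to least abundant were bta-miR-660, bta-miR-532, bta-miR-502b, bta-miR-362-5p, bta-miR-500, bta-miR-188, bta-miR-362-3p and bta-miR-502a. The prefix bta, for cattle, is left out below. No listed name was that of miR-501. All 8 were listed in all 11 libraries, and all 8 passed the filter on low values that left 360 miRNAs to be tested.

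The libraries came from the omental fat, the fat of the abdominal fold that hangs from the stomach, of Alpine goats in milk, near 48 ± 2 days after kidding. In one group of 6 goats, feed was withheld for the last 48 h before slaughter. In the control group of 5 goats, the standard diet stayed freely available. All 11 goats had first spent 2 weeks on the same diet of orchardgrass hay and concentrate at 35:65, and each library came from a separate goat. Each library held 16974441 to 25389788 miRNA reads. The RNA was of whole tissue, so that fewer cells of a type and less miRNA per cell cannot be told apart. Summed leukocyte miRNAs, a list of 7, were at 59461 to 87683 normalised reads in feed-deprived goats and 46597 to 64712 in controls, and 7 of 7 had a positive log2 fold change (5 of 7 with upper-quartile factors). The abundant mesenchymal miRNAs miR-143, miR-145, miR-26a and miR-10b, which mark connective and fat tissue without being specific to it, summed to 7311214 to 13397400 normalised reads in feed-deprived goats and 9924140 to 14942093 in controls. Positive log2 fold changes numbered 0 of 4 in this list, and 2 of 4 with library totals as the only scaling or without feed-deprived replicate 1. Positive values numbered 3 of 3 for red-cell and 3 of 4 for epithelial miRNAs (2 of 3 and 2 of 4 with upper-quartile factors). They numbered 2 of 4 for striated-muscle miRNAs (0 of 4 with those factors) and 0 of 2 for endothelial ones. Over all 360 tested miRNAs 50.8% were positive. The part of any of these lists in the values of the cluster was not tested.

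A clustered miRNA is usually cut from a long transcript that it shares with its neighbours. The nuclear enzyme Drosha releases each hairpin, Dicer trims it, and one arm, named 5p or 3p, is loaded into the silencing complex, where it pairs with messenger RNAs. Members of a cluster can therefore share their transcription and still differ in processing and stability. In human and mouse the hairpins of this cluster sit in introns of CLCN5, and miR-362, miR-500, miR-501 and miR-502 are similar in sequence. miR-188 has been studied in mouse bone marrow, where it favours fat cells over bone-forming cells.

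The goat gene table of RefSeq assembly ARS1.2 held 7 hairpin genes for the 8 members, since MIR362 gives rise to both miR-362-5p and miR-362-3p. MIR502A, MIR660, MIR500, MIR362 and MIR502B followed each other in this order on chromosome X, all 5 within the bounds of CLCN5 and with no other gene between them. MIR188 and MIR532 were next to each other on a sequence that the assembly places on no chromosome. The deposited files name no genome build, so no coordinates are given, and mature sequences were not used here. How the authors assigned reads that match several similar miRNAs is not stated in the sources used here, so the values of miR-500, miR-502a and miR-502b, and of miR-362-5p beside them, are uncertain to that extent.

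The cluster was dominated by miR-660 and miR-532. Of the reads of all 8 members, miR-660 held a mean of 72.1% over the 11 libraries (range 69.2% to 75.1%) and miR-532 held 22.2% (19.8% to 24.6%). miR-502b held 2.29%, miR-362-5p 1.62%, miR-500 0.850%, miR-188 0.455%, miR-362-3p 0.234% and miR-502a 0.202%. Among all 637 miRNAs ranked by mean signal, miR-660 stood at place 60, miR-532 at 91 and miR-502a, the lowest of the members, at 293. These are shares of reads, and adapter ligation favours some small RNAs over others, so they do not give molar amounts.

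The order of the levels was nearly the same in every goat. miR-660 lay above miR-532, and miR-532 above miR-502b, in 11 of 11 libraries. miR-502b and miR-362-5p were not separated, miR-502b being the higher in 9 of 11 libraries. miR-362-5p lay above miR-500, and miR-500 above miR-188, in 11 of 11. miR-188 exceeded miR-362-3p in 10 of 11 libraries, the last being a tie at 84 reads, and miR-362-3p and miR-502a were not separated, with miR-362-3p the higher in 7 of 11. The whole cluster took 0.0978% ± 0.0246 of the miRNA reads in feed-deprived goats (SD, n = 6) and 0.0813% ± 0.0194 in controls (SD, n = 5). The feed-deprived libraries ran from 0.0702% to 0.130% and the control libraries from 0.0506% to 0.0984%, so the groups overlapped.

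miR-660 stood at a lowest value of 11320 normalised reads, a median of 12377 and a highest of 19588 in the 6 feed-deprived goats. Its 5 control goats, in replicate order, had 14264, 15100, 9183, 15491 and 9702 normalised reads. The groups overlapped, with feed-deprived replicate 3 above all others and control replicates 3 and 5 below all others. miR-532 had 3445 (lowest), 4017 (median) and 5463 (highest) normalised reads in feed-deprived goats, against 5008, 4281, 2622, 4259 and 3445 in the controls. Feed-deprived replicate 3 was again the highest library and control replicate 3 again the lowest. miR-502b had 260.3 (lowest), 398 (median) and 633 (highest) normalised reads in feed-deprived goats, against 478, 606, 182, 567 and 287 in the controls. Here too feed-deprived replicate 3 was the highest and control replicate 3 the lowest of all libraries.

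miR-500 varied least. It had 127 (lowest), 135 (median) and 151 (highest) normalised reads in feed-deprived goats, against 151, 161, 142, 191 and 175 in controls. Of the 6 feed-deprived goats 4 lay below all controls, and replicates 5 and 6 lay within the control range. miR-188 had 56.8 (lowest), 103 (median) and 119 (highest) normalised reads in feed-deprived goats, against 67.6, 39.9, 52.7, 111 and 70.4 in controls. Feed-deprived replicates 3 and 4 lay above all controls, while replicates 1, 2, 5 and 6 lay between control values.

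The 2 arms of miR-362 were unequal, with the 5p arm more abundant in every library. miR-362-5p had 248 (lowest), 308 (median) and 355 (highest) normalised reads in feed-deprived goats, against 315, 213, 214, 359 and 233 in controls. The control goats thus fell into a higher pair and a lower group of 3, and the feed-deprived goats filled the same range. miR-362-3p had 26.7 (lowest), 40.7 (median) and 69.0 (highest) normalised reads in feed-deprived goats, against 30.6, 26.6, 23.5, 33.4 and 70.4 in controls, where replicate 5 alone was high. miR-502a had 23.5 (lowest), 32.6 (median) and 41.0 (highest) normalised reads in feed-deprived goats, against 48.5, 45.2, 38.1, 31.3 and 36.9 in controls. Of the feed-deprived goats 3 lay below all controls for miR-502a, and the rest lay within the control range.

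**Figure D1:**
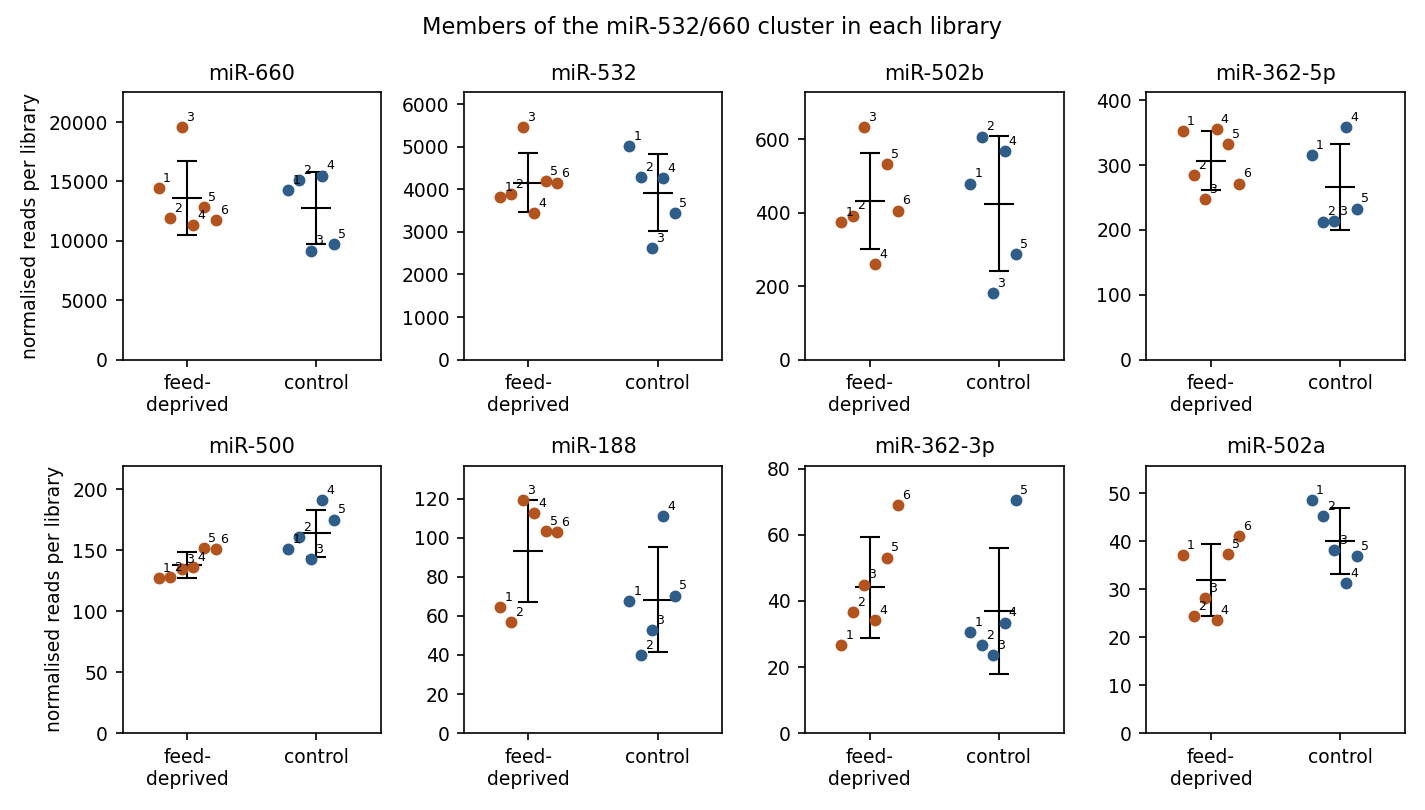
Normalised reads of each member (vertical axes, linear and starting at 0, a separate scale per panel) in the 6 feed-deprived and 5 control libraries. Points are libraries with their replicate number, and the bars show the mean ± SD. The 2 groups overlap for every member, and miR-500 has the smallest spread, from 127 to 191 normalised reads over all 11 libraries.

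No member of the cluster changed past the threshold after 48 h without feed. In limma on log2(value + 1), with Benjamini-Hochberg adjusted p under 0.05 over the 360 tested miRNAs, 0 of the 8 members were called, where 0.833% of all tested miRNAs (3 of 360) were. At an unadjusted p under 0.05 the members again numbered 0, against 42 of 360 (11.7%). The groups were free of overlap for 0 of the 8 members and for 6 of the 360 miRNAs (1.67%). edgeR's quasi-likelihood test and DESeq2 on the recovered reads also called 0 of the 8, with no unadjusted p under 0.155 in edgeR or 0.0918 in DESeq2.

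The log2 fold changes were small and of both signs. miR-660 averaged 13640.0 ± 3119 normalised reads in feed-deprived goats (SD, n = 6) and 12748 ± 3056 in controls (SD, n = 5), a log2 fold change of 0.11 with an SE of 0.19 (adjusted p = 0.938 in limma). miR-532 averaged 4158 ± 693 and 3923 ± 914 normalised reads in feed-deprived and control goats, a log2 fold change of 0.10 with an SE of 0.18 (adjusted p = 0.938 in limma). For miR-660, at the estimated spread, the 95% interval of the fold ran from 0.810 to 1.43, and for miR-532 from 0.819 to 1.41. miR-502b had a log2 fold change of 0.11, with a wider interval of the fold from 0.662 to 1.75. All of these 3 values were below 0 with upper-quartile factors and without control replicate 3, and those of miR-660 and miR-502b also without feed-deprived replicate 3. With 8189 reads or more of miR-660 in every library, the spread between libraries and not counting set the width of its interval. Each goat gave 1 library, so spread between goats and spread from library preparation cannot be told apart.

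The positive value farthest from 0 was that of miR-188, which averaged 93.2 ± 26.1 normalised reads in feed-deprived goats and 68.3 ± 26.8 in controls. This was a log2 fold change of 0.47 with an SE of 0.29 (adjusted p = 0.591 in limma) and an interval of the fold from 0.901 to 2.13. The value was 0.30 without control replicate 2 and 0.29 with upper-quartile factors. miR-362-5p had a log2 fold change of 0.22 and miR-362-3p, which rested on 20 to 84 reads per library, one of 0.30. For miR-362-5p it was 0.15 without control replicate 2, 0.15 without control replicate 3 and 0.34 without control replicate 4. With upper-quartile factors miR-362-5p stood at 0.04 and miR-362-3p at 0.12, and with library totals at 0.38 and 0.45. Without control replicate 5 the value of miR-362-3p was 0.55, and without feed-deprived replicate 6 it was 0.16.

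miR-500 and miR-502a had negative values. miR-500 averaged 138 ± 10.9 normalised reads in feed-deprived goats and 164 ± 19.4 in controls, a log2 fold change of -0.24 with an SE of 0.16 (adjusted p = 0.649 in limma). Its interval of the fold ran from 0.664 to 1.07. miR-502a averaged 31.9 ± 7.496 and 40.0 ± 6.87 normalised reads in feed-deprived and control goats, a log2 fold change of -0.33 with an SE of 0.23 (adjusted p = 0.668 in limma), on 24 to 61 reads per library. The sign of both was negative in each alternative fit, with -0.08 for miR-500 and -0.17 for miR-502a with library totals as the only scaling, and -0.42 and -0.51 with upper-quartile factors.

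Over the cluster 6 of the 8 log2 fold changes were positive (75.0%), with a median of 0.11. Over all 360 tested miRNAs 50.8% were positive, with a median of 0.0040. The count was 3 with upper-quartile factors, which move the median of all tested miRNAs to -0.17, and also 3 without control replicate 3. With library totals as the only scaling it was 6 of the 8, and 73.6% of all tested miRNAs were then positive. Of the positive members, miR-660, miR-532 and miR-502b also varied together, as given below.

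**Figure D2:**
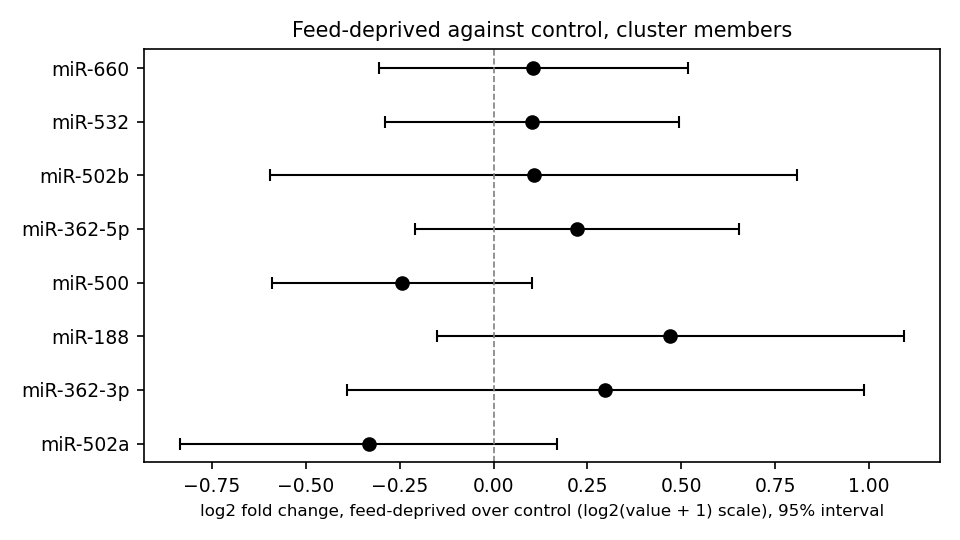
Log2 fold change of feed-deprived over control goats on the log2(value + 1) scale (horizontal axis) for each member, from the most abundant at the top to the least abundant at the bottom. Points are limma estimates, lines their 95% intervals, and the dashed line marks no difference. All 8 intervals include 0, with estimates from -0.33 for miR-502a to 0.47 for miR-188.

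Of the 8 members, 3 followed each other closely from goat to goat. miR-660, miR-532 and miR-502b, singled out after their values were seen, were high in the same goats and low in the same goats. Over the 11 libraries miR-532 and miR-502b had a Pearson r of 0.91 (permutation p = 1.7e-04, adjusted p = 0.182) and a Spearman rho of 0.94 (permutation p = 8.0e-05, adjusted p = 0.223). miR-660 and miR-502b had an r of 0.87 (permutation p = 5.1e-04, adjusted p = 0.242) and a rho of 0.87 (permutation p = 8.1e-04, adjusted p = 0.329). miR-660 and miR-532 had an r of 0.86 (permutation p = 8.2e-04, adjusted p = 0.333) and a rho of 0.85 (permutation p = 0.0019, adjusted p = 0.521). The adjustment was over all 2844 pairs of a member with another tested miRNA, of which 0 (0.0%) passed at an adjusted p under 0.05 and 243 (8.54%) had an unadjusted p under 0.05. Of the 28 pairs of members, these 3 had an unadjusted p under 0.05 and none passed the adjustment, by Pearson's or Spearman's measure. miR-532 with miR-502b passed without control replicate 1 (r = 0.93, permutation adjusted p = 0.0284).

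Each of the 3 had the other two as its closest partners among 359. For miR-660 these were miR-502b and then miR-532, for miR-532 they were miR-502b and then miR-660, and for miR-502b they were miR-532 and then miR-660. Over all 64620 pairs of tested miRNAs the median r was -0.0090, and 0.156% had an r above 0.9. All values of a library share 1 normalising factor. With both groups centred on their own means the 3 correlations were 0.91, 0.87 and 0.86, in the order given above. Feed-deprived replicate 3 and control replicate 3 were the extremes in all 3 pairs. Without these 2 libraries r was 0.79 for miR-532 with miR-502b (exact permutation p = 0.0103, n = 9), 0.79 for miR-660 with miR-502b (exact permutation p = 0.0116, n = 9) and 0.68 for miR-660 with miR-532 (exact permutation p = 0.0412, n = 9).

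The library factor cancels from ratios of 2 members. Of the 3 close pairs, only miR-660 and miR-532 had a ratio that was clearly steadier than each of its members. miR-660 had 2.82 to 3.79 times the reads of miR-532 over the 11 libraries, a range of 1.35-fold, while miR-660 itself spanned 2.13-fold and miR-532 2.08-fold. The ratio of miR-660 to miR-532 ran from 2.83 to 3.79 in feed-deprived goats and from 2.82 to 3.64 in controls. The ratio of miR-660 to miR-500 ran over 2.62-fold, and that of miR-660 to miR-188 over 3.76-fold, in each case wider than miR-660 alone. The ratio of miR-660 to miR-502b ran over 2.10-fold and that of miR-532 to miR-502b over 2.04-fold. These ranges were about as wide as miR-660 or miR-532 alone, and narrower than miR-502b alone, which spanned 3.48-fold. The SD of the log2 ratio was 0.16 for miR-660 to miR-532, 0.33 for miR-660 to miR-502b and 0.33 for miR-532 to miR-502b. It was also 0.33 for miR-532 to miR-500, a pair with an r of 0.05. miR-500 itself varied far less than miR-502b, with a residual SD on the log2 scale of 0.14 against 0.59.

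**Figure D3:**
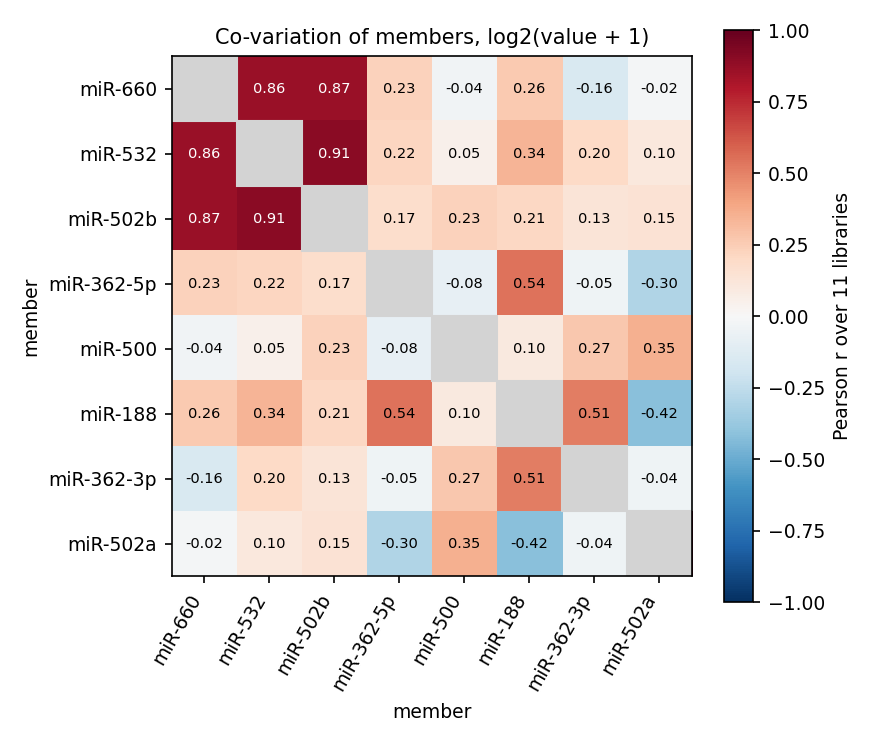
Pearson r of log2(value + 1) over the 11 libraries for each pair of members, ordered by abundance on both axes, with the colour scale running from -1 (blue) to 1 (red). The block of miR-660, miR-532 and miR-502b at the upper left holds values of 0.86 to 0.91, and the other 25 pairs lie between -0.42 and 0.54.

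The other 25 pairs had r from -0.42 (miR-188 with miR-502a) to 0.54 (miR-362-5p with miR-188), with 17 positive and 8 negative, a median of 0.15 and 0 at an unadjusted permutation p under 0.05. With both groups centred on their own means 2 of the 25 had one. These were miR-500 with miR-362-3p, at an r of 0.68 (permutation p = 0.0336, adjusted p = 0.551) against 0.27 uncentred, and miR-500 with miR-188, at 0.66 (permutation p = 0.0422, adjusted p = 0.587) against 0.10 uncentred. The measured values of hairpins that lie side by side did not always follow each other. MIR500 and MIR362 lie between MIR660 and MIR502B, and r with miR-660 was -0.04 for miR-500 and 0.23 for miR-362-5p. The variance of miR-500 was only 1.48 times that of counting alone, so its low r cannot tell whether it followed miR-660 weakly. It did not move in proportion with miR-660, since its residual SD on the log2 scale was 0.14, against 0.33 for miR-660. The ratio of miR-660 to miR-500 ran over 2.62-fold, wider than the 2.13-fold of miR-660 alone. The assignment of reads to miR-500 and miR-362-5p is also uncertain, as given above. MIR188 neighbours MIR532, and r between miR-188 and miR-532 was 0.34 (permutation p = 0.320, adjusted p = 0.804; rho 0.26, permutation p = 0.436, adjusted p = 0.896), and -0.16 without the 2 libraries farthest from the median of miR-532. The 2 arms of miR-362, cut from 1 hairpin, had an r of -0.05 (permutation p = 0.892, adjusted p = 0.995; rho 0.06, permutation p = 0.861, adjusted p = 0.988). Without the 2 libraries farthest from the median of miR-362-5p that r was -0.71 (exact permutation p = 0.0386, n = 9). Leaving out the 2 farthest libraries in the same way gave -0.75 for miR-660 with miR-362-3p (exact permutation p = 0.0218, n = 9), against -0.16 over all 11, and 0.71 for miR-500 with miR-502a (exact permutation p = 0.0332, n = 9), against 0.35. Of all 28 pairs of members 6 had an exact permutation p under 0.05 in this way, the close pairs of miR-660, miR-532 and miR-502b among them. These p-values are unadjusted, and the pairs were named after their values were seen. Control replicate 5, which alone was high in miR-362-3p among the controls, was kept for the values of -0.71 and -0.75.

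**Figure D4:**
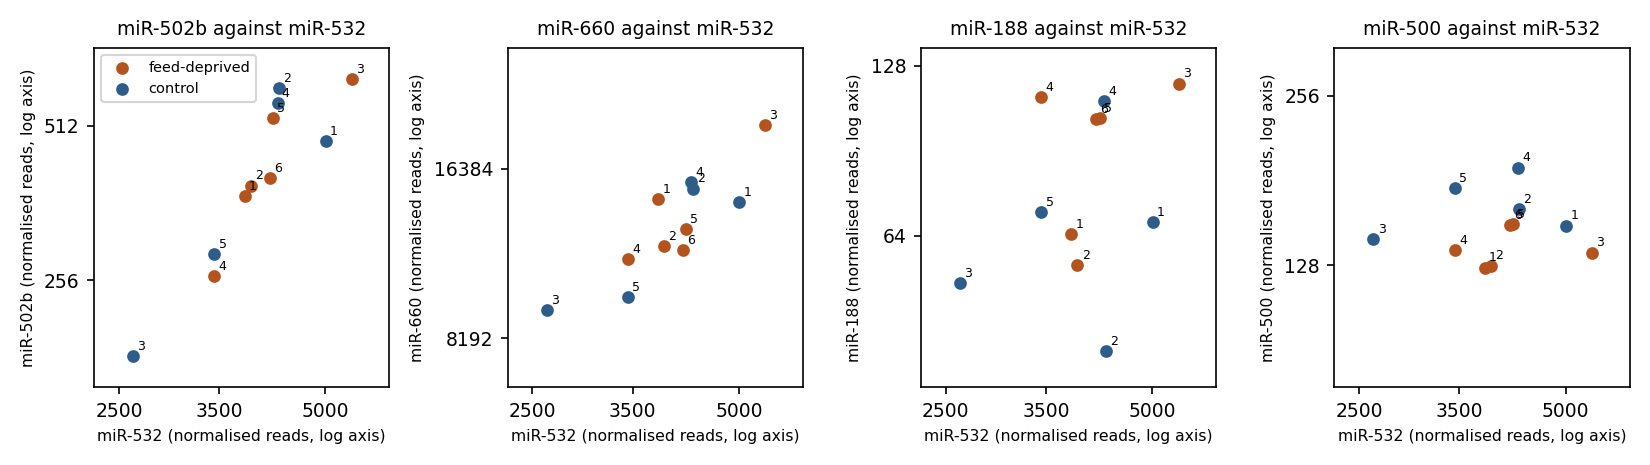
Normalised reads of miR-502b, miR-660, miR-188 and miR-500 (vertical axes, log scale) against those of miR-532 (horizontal axes, log scale), one point per library with its replicate number. miR-502b and miR-660 rise along miR-532 with r of 0.91 and 0.86, whereas miR-188 and miR-500 have r of 0.34 and 0.05.

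Counting error differs widely between the members and stands beside these correlations. Within groups the variance of the reads was 705 times that of counting alone for miR-660, 148 times for miR-532 and 55.2 times for miR-502b. It was 10.7 times for miR-362-5p, 8.75 times for miR-188 and 8.17 times for miR-362-3p. For miR-500 and miR-502a it was 1.48 and 1.5 times, so the spread of these 2 was close to the size that counting alone gives. The part of counting error in the correlations was not tested. miR-500 was among the steadiest miRNAs of the tissue: its residual SD of 0.14 on the log2 scale was undercut by 0.556% of the 360 tested miRNAs, whose median was 0.43. The residual SD was 0.59 for miR-502b, 0.54 for miR-362-3p and 0.49 for miR-188, all above that median.

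The 2 arms of miR-362 kept no fixed ratio. The 5p arm had 7.84 ± 3.41 times the reads of the 3p arm in feed-deprived goats (SD, n = 6) and 8.29 ± 2.98 times in controls (SD, n = 5). The ratio ran from 3.94 to 13.2 in feed-deprived goats and from 3.31 to 10.7 in controls. Its log2 difference between the groups was -0.08 with an SE of 0.37 (adjusted p = 0.947 in limma over the 29 miRNAs with both arms tested). Among those 29 ratios 0 (0.0%) passed in limma and 1 had an unadjusted p under 0.05. Leaving out 1 library moved the miR-362 value between -0.37 and 0.10.

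The likeness of other miRNAs to the cluster was measured as the mean Pearson r with the 8 members over the 11 libraries. The 5 highest were miR-31 at 0.49, miR-885 at 0.37, miR-324 at 0.34, the ruminant miR-2285bu at 0.31 and the ruminant miR-2284x at 0.30. miR-31 was nearest to miR-532 (r = 0.75) and miR-502b (0.70) and farthest from miR-362-5p (0.14). miR-2284x followed miR-502b (0.81) and miR-660 (0.78) and went against miR-362-5p (-0.26). None of these 5 passed in the comparison of the groups, with limma adjusted p-values from 0.872 for miR-324 to 0.990 for miR-885.

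The members outside the block of 3 each had a partner outside the cluster that was closer than any other member. These partners were named after their values were seen. miR-188 was closest to miR-21-3p, the minor arm of miR-21, at an r of 0.91 (permutation p = 3.2e-04, adjusted p = 0.182; rho 0.85, permutation p = 0.0020, adjusted p = 0.521), and 0.83 without the 2 farthest libraries. miR-362-5p was closest to miR-433, a miRNA of the imprinted DLK1-DIO3 region, at an r of 0.89 (permutation p = 7.0e-05, adjusted p = 0.182; rho 0.91, permutation p = 2.1e-04, adjusted p = 0.223), and 0.79 without the 2 farthest libraries. The best partner of miR-500 was miR-708 at 0.74, that of miR-362-3p miR-193a-3p at 0.82 and that of miR-502a miR-11971 at 0.82 (permutation adjusted p = 0.488 for each). The best partner within the cluster ranked 30 among 359 for miR-362-5p, 35 for miR-188, 43 for miR-362-3p, 55 for miR-502a and 63 for miR-500. Nearly all of the 359 partners lie outside the cluster, so a closer one there would be likely by number alone. The ranks are a description with no test, and none of the pairs named here passed the adjustment.

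Other miRNAs that lie on the X chromosome in goat or in other mammals were set beside the cluster. Of 36 listed miRNAs of such loci, 33 were tested, and 16 had a positive and 17 a negative log2 fold change, with a median of -0.01. Without let-7f, miR-19b and miR-92a, which have copies on other chromosomes, 13 of 30 were positive. In limma 0 of the 33 passed and 3 had an unadjusted p under 0.05. edgeR also called 0, and DESeq2 called 1, miR-223, which also passed in limma without control replicate 1 (adjusted p = 0.0218) and with library totals (adjusted p = 0.0383). The lowest p-values belonged to miR-223, which marks myeloid blood cells such as neutrophils, at 2.12 on the log2 scale (adjusted p = 0.074 in limma), and to miR-450a at -0.83, miR-542-5p at -0.78 and miR-503-3p at -0.87 (limma adjusted p of 0.342, 0.423 and 0.479). The last 3 are neighbours of miR-424. The cluster within CLCN5 ran from -0.33 to 0.47, and no test set its members against these.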

How the data were processed

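Small RNA from the omental fat of 11 goats was sequenced as single reads of 50 bases after 13 cycles of PCR, per the labels' protocols. The authors deposited 1 normalised signal per mature miRNA and library, under bovine names. The aligner, the miRNA database and the genome build are not given in the labels or files used here. Dividing the deposited signal by its smallest non-zero value gave a whole number for 100% of values in each library, to within 0.001 read, so whole reads were recovered. Intervals cover the spread between libraries, 1 per goat, and PCR copies are not independent molecules.

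Groups follow the treatment label. Replicates were numbered in accession order and pair nothing. Of 629 miRNAs present in every list, 360 passed filterByExpr of edgeR 4.0.16 at a minimum count of 10. limma 3.58.1 (R 4.3.3; variance trend, robust, two-sided) compared log2(value + 1), a scale that understates changes of low miRNAs. The plan allowed for counts or normalised values, and limma was used because the values are normalised. DESeq2 1.42.0 and edgeR on recovered reads, pseudocounts, filters, scalings and leaving out each library were alternatives. Correlations used 100000 permutations in numpy 2.4.6. Fits and correlations were tested on simulated data.

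The members and lists were chosen with earlier results of these data known. The rule for named miRNAs took the members, the 5 most alike, and the 4 of the X-linked list with the lowest p. Outside this rule, the closest partners of single members were named after their values were seen, and miR-143, miR-145, miR-26a and miR-10b as tissue markers, let-7f, miR-19b and miR-92a for their copies elsewhere. A planned search for miRNAs sharing bases 2 to 8 with a member was not made, since mature sequences were not used here.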

Additional observations from a re-analysis of the deposited data

Results flagged for a closer look

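Each group's values of the members, their sums, the arm ratio and the other named miRNAs were searched for single goats that stood apart. Such a goat was found in 6 of 40 sets. About 1 set in 20 would show one by chance if the sets were independent and normally distributed. The sets overlap, since the sum over the cluster holds miR-532, and miR-2284x was chosen for its likeness to the members. The 6 found can therefore not be set against that rate. Feed-deprived replicate 3 had 5463 normalised reads of miR-532, against 3445 to 4191 in the other feed-deprived goats. The same goat had 26259 normalised reads summed over the cluster, against 15687 to 19242 in the others, and 12404 of miR-2284x, against 7348 to 8982. miR-362-3p stood at 70.4 normalised reads, or 84 reads, in control replicate 5, against 23.5 to 33.4 normalised reads in the other controls. For miR-223, feed-deprived replicate 1 had 3458 normalised reads against 595 to 963 in its group, and control replicate 1 had 753 against 86.2 to 242.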

How the results depend on the processing

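Over the 10 other settings and the 11 fits without 1 library, the members called stayed at 0, with limma, edgeR or DESeq2 adjusted p-values of 0.282 to 0.9997. With a mean of 10 CPM or more only 4 members were tested. Upper-quartile factors gave log2 fold changes of -0.073 for miR-502b, -0.077 for miR-532 and -0.074 for miR-660, 3 members with positive values, a member median of -0.07 and 1 miRNA called lower. Library totals alone move the median of all tested miRNAs to 0.16 and gave 7 called higher, 1 lower and 1 X-linked miRNA called (miR-223). DESeq2 called 9 higher and 1 X-linked, and the filter at 10 CPM left 0 higher. Without 1 library, the numbers called ranged from 0 to 4 higher, 0 to 1 lower and 0 to 1 X-linked, the positive members from 3 to 6, the member median from -0.02 to 0.22 and the arm ratio of miR-362 from -0.37 to 0.10. In those fits miR-502b ran from -0.16 to 0.27, miR-532 from -0.034 to 0.20 and miR-660 from -0.0037 to 0.19. Member pairs past the adjusted threshold were 0 with the 5 other settings and 0 to 1 without 1 library. The 1 was miR-532 with miR-502b without control replicate 1 (r = 0.93, permutation adjusted p = 0.0284). The r of the 3 close pairs stayed between 0.80 and 0.95. The causes were not tested. No paired analysis was made, since each library came from a separate goat and the labels give no pairing. Low reads limit miR-362-3p and miR-502a, with 20 to 84 and 24 to 61 per library.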
